A study of Mus musculus with 19 samples.

Results

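The BCL2 family was followed through type 1 conventional dendritic cells (DC1), which present antigen from dying cells to CD8 T cells. It was taken as 10 genes. These were the anti-apoptotic Bcl2, Bcl2l1 (BCL-XL) and Mcl1, the effectors Bax and Bak1, and the BH3-only genes Bcl2l11 (BIM), Bid, Bbc3 (PUMA), Pmaip1 (NOXA) and Bmf. Each gene was read from its brightest array probe set annotated to a single symbol. On both array types 9 of the 10 genes had such a probe set, among 22180 genes in spleen and 19938 in skin-draining lymph node (SDLN). The expression of Bax was not analysed here. Testing needed a signal at or above the table's median on 2 or more arrays. All 9 genes passed in SDLN, and 8 passed in spleen, where Bbc3 lay below that level.

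BCL2 family proteins decide whether the outer membrane of the mitochondrion is breached, the step that releases cytochrome c and sets off caspases. BAX and BAK form the pores, BCL2, BCL-XL and MCL1 hold them in check, and BH3-only proteins are the stress-induced triggers that bind the anti-apoptotic proteins or activate the effectors. Dendritic cells are short-lived, and this balance is known to help set how long they last, MCL1 being required for conventional dendritic cells in mice.

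The 19 arrays fell into 7 groups of mice on a C57Bl/6j background. In SDLN all cells were Irf8VENUS+, a fluorescent reporter of Irf8, and there were 3 arrays of Batf3-/- migratory, 2 of WT migratory, 3 of Batf3-/- resident and 3 of WT resident DC1. The inguinal, cervical and brachial nodes were used, and cells were gated as B220- EpCam- CD11c+ MHCII+ CD24+ CD172-, with migratory cells MHCIIhi CD11cint and resident cells MHCIIint CD11chi. In spleen, from female mice, there were 3 arrays of Batf3-/- Irf8VENUS+, 3 of WT Irf8VENUS+ and 2 of WT Irf8VENUS- DC1. Batf3, a transcription factor gene needed for normal DC1 development, is disrupted in the Batf3-/- groups, so the cells studied there are those that still meet the gate without it. The spleen sort used CD24 with XCR1, except for replicate 3 in each of the Irf8VENUS+ groups, which was sorted by CD24 only. The spleen sort label also says CD172a+, unlike the CD172- gate of SDLN, and that difference was not resolved here. In SDLN, arrays with the same replicate number also have a title code in common. Whether the replicates were different mice is not stated, so the p-values reflect array-to-array spread that may be technical.

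Batf3 had a log2 intensity of 5.50 to 6.17 in the Batf3-/- SDLN arrays, against 8.15 to 9.23 in the WT SDLN arrays, and 5.29 to 7.08 in Batf3-/- spleen arrays, against 9.42 to 10.41 in WT spleen arrays. The mean of the 6 DC1 markers (Xcr1, Clec9a, Tlr3, Itgae, Wdfy4 and Cadm1) was 6.29 to 6.40 in Batf3-/- migratory, 6.96 to 7.46 in WT migratory, 9.63 to 9.75 in Batf3-/- resident and 10.18 to 10.40 in WT resident arrays. Tlr3 was near the filter level of 4.82 in Batf3-/- migratory arrays (4.89 to 5.78), and all 6 markers are included in the mean above. In replicate 1 of Batf3-/- migratory and of WT migratory DC1, 5 of the 6 DC1 markers reached that level. The marker below it in Batf3-/- migratory replicate 1 was one other than Tlr3. Ccr7, the chemokine receptor of dendritic cells that travel to nodes, was 12.08 to 12.66 in Batf3-/- migratory and 11.31 to 12.07 in WT migratory arrays, against 9.53 to 10.63 in Batf3-/- resident and 7.99 to 8.88 in WT resident arrays. Among WT resident arrays, replicate 1 stood apart in markers of the cDC2 subset. The 4 measured summed to 1206 in linear intensity there, against 257 in replicate 2 and 298 in replicate 3. Sirpa, 1 of these markers, read 7.82 in replicate 1. That array also had the lowest Bid and Bmf of its group. The summed linear intensity of the 4 B cell markers measured, of 5 listed, was 141 to 305 in Batf3-/- migratory, 355 to 396 in WT migratory, 120 to 165 in Batf3-/- resident and 102 to 151 in WT resident arrays. Their part, and that of the T cell markers given below, in the results that follow was not tested. Precision is limited by how few arrays each group has.

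Of the members' promoter windows, only those of Bcl2l1, Mcl1, Bbc3 and Bid are printed. The windows of Bcl2l1, Mcl1 and Bbc3 are the ones that held a match to the NF-kB motif described below. That of Bid held none. The printed set thus does not show how common the motif is among members that moved with migration. Each window is the 250 bases before a RefSeq start of the GRCm38.p6 build, written 5′ to 3′ on the strand of the gene. Capitals mark a match to the NF-kB motif, which is GGG, NN and TTTCC in a row with N any base, on either strand. The Bcl2l1 window is the second of 3 listed starts, at chr2:152830718-152830967 on the minus strand. The Mcl1 window lies at chr3:95658471-95658720 on the plus strand. The Bbc3 window is the first of 3 starts, at chr7:16309333-16309582 on the plus strand, and the Bid window lies at chr6:120916825-120917074 on the minus strand.
Bcl2l1: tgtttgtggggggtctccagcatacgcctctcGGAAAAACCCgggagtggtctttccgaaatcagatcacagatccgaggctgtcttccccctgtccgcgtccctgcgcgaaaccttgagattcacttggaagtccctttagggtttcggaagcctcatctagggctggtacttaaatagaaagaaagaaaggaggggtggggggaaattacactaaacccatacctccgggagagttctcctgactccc
Mcl1: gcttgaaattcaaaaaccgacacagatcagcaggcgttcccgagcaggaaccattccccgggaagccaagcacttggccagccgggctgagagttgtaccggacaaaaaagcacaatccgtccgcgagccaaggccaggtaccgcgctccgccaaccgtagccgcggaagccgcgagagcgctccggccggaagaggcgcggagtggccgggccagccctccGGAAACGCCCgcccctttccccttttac
Bbc3: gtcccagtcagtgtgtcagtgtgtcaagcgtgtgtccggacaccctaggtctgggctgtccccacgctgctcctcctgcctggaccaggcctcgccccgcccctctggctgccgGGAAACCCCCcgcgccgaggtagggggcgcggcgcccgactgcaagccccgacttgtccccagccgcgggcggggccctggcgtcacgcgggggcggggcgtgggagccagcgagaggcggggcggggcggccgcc
Bid: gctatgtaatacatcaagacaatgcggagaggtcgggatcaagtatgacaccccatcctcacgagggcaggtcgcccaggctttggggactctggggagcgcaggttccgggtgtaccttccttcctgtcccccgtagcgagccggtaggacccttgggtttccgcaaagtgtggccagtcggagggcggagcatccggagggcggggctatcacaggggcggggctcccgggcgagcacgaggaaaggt

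The 9 members searched included Bax and left out Pmaip1, whose promoter was not searched. In all, 16 windows of these members were searched on both strands for 4 motifs. These were NF-kB, AP-1 (TGANTCA), CRE (TGACGTCA) and IRF (GAAA, NN and GAAA in a row). The NF-kB letters were found in 3 of the 16 windows, those printed for Bcl2l1, Mcl1 and Bbc3, and the other motifs in 0. Of 32851 windows of the same length, 1.41% held the NF-kB motif, 6.75% AP-1, 1.55% CRE and 2.98% IRF. A match describes the letters only, and the other starts of Bcl2l1 and Bbc3 held none.

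The members that passed a test did so between migratory and resident lymph node cells. In Batf3-/- DC1, 5 of 9 members passed the test between migratory and resident cells, with 3 higher (Bcl2l1, Mcl1 and Bbc3) and 2 lower (Bcl2 and Bid). Over the 11931 genes tested, 36.6% were called in that comparison, 14.1% higher and 22.6% lower. In WT DC1 5 of 9 members also passed, with 2 higher (Bcl2l1 and Mcl1) and 3 lower (Bid, Bak1 and Pmaip1), where 49.2% of genes were called, 16% higher and 33.2% lower. Higher calls made up 32.4% of the calls over all genes in WT, but 22.3% with median centring, 41.1% after a second quantile normalization, 54.8% without the filter on dim genes and 58.1% with the SD of each array's values as a covariate. No test of the members' share against that of all genes was made. The median log2 fold change of the members was 0.02 in Batf3-/- and -0.12 in WT, against -0.02 and -0.16 over all genes. Bcl2l1, Mcl1 and Bid were called in the same direction in both genotypes. These comparisons contrast different arrays but are not independent tests. The same fit over all SDLN arrays gave the spread for both, and arrays of both genotypes share title codes. A call here means an adjusted p under 0.05 from limma, Benjamini-Hochberg adjusted over all genes tested. In RNA from bulk sorted cells, a change in level per cell and a change in the share of cells that carry the transcript cannot be told apart.

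**Figure D1:**
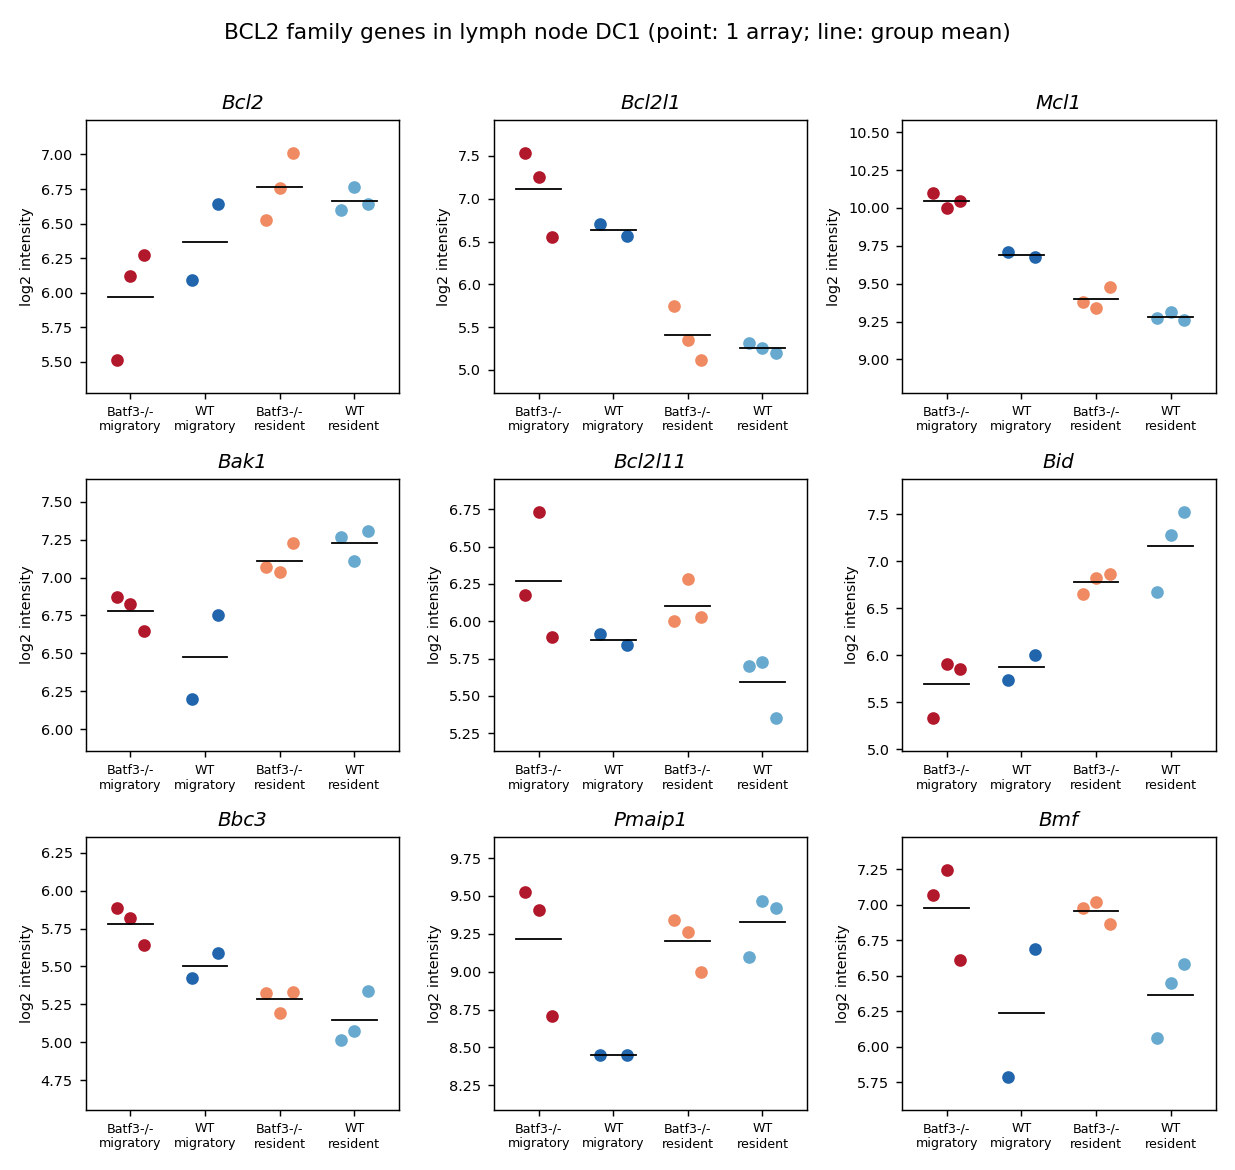
Log2 intensity of the 9 measured BCL2 family genes in lymph node DC1, 1 point per array, with the line at the group mean and a separate vertical axis for each gene that does not start at 0. Bcl2l1 and Mcl1 sit higher and Bid lower in both migratory groups than in both resident groups, and the 2 WT migratory arrays of Pmaip1 lie together at 8.45.

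Bcl2l1 encodes BCL-XL, an anti-apoptotic protein that holds BAX, BAK and BH3-only proteins. Its log2 intensity was 7.53, 7.25 and 6.56 in Batf3-/- migratory DC1, against 5.75, 5.35 and 5.12 in Batf3-/- resident DC1. In WT it was 6.71 and 6.57 in migratory cells, against 5.31, 5.25 and 5.19 in resident cells. Every migratory array lay above every resident array. Such separation was common, since 46.8% of all genes tested did not overlap between migratory and resident cells in Batf3-/- and 70.3% did not in WT. The difference was 1.71 ± 0.23 (SE), a 3.27-fold rise, in Batf3-/- (limma adjusted p = 7.96e-05) and 1.38 ± 0.25, a 2.61-fold rise, in WT (adjusted p = 8.41e-04). Within arrays sharing a title code it was 1.78, 1.901 and 1.44 in Batf3-/- and 1.39 and 1.31 in WT. Both calls held under every alternative run, 16 in Batf3-/- and 15 in WT.

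Mcl1 encodes the short-lived anti-apoptotic protein MCL1. It read 10.10, 9.9999 and 10.04 in Batf3-/- migratory DC1, against 9.38, 9.34 and 9.48 in Batf3-/- resident DC1. In WT it read 9.71 and 9.67 in migratory cells, against 9.27, 9.31 and 9.26 in resident cells. The 4 groups did not overlap, in the order Batf3-/- migratory, WT migratory, Batf3-/- resident and WT resident from high to low. Over all genes tested, 36.6% did not overlap between genotypes in migratory cells and 19.8% did not in resident cells. Between migratory and resident cells the shares were those given for Bcl2l1. The rise was 0.65 ± 0.12 in Batf3-/- (limma adjusted p = 8.31e-04) and 0.41 ± 0.13 in WT (adjusted p = 0.0210). The WT call was lost without any of its 5 arrays in turn, at log2 fold changes of 0.40, 0.42 and 0.40 without WT resident replicates 1, 2 and 3 (adjusted p = 0.0531, 0.0540 and 0.0602) and of 0.39 and 0.43 without WT migratory replicates 1 and 2 (adjusted p = 0.0979 and 0.0617). It was also lost with each array centred on its median (0.26, adjusted p = 0.114).

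Bcl2 itself, the founding anti-apoptotic gene, went the other way from Bcl2l1 and Mcl1. Its values were 5.52, 6.12 and 6.27 in Batf3-/- migratory DC1, against 6.53, 6.76 and 7.01 in Batf3-/- resident DC1. WT cells had 6.09 and 6.64 in the migratory arrays, against 6.60, 6.76 and 6.64 in the resident arrays. The groups were apart in Batf3-/-, as were 46.8% of all genes tested, and overlapped in WT. Bcl2 fell by 0.80 ± 0.22 on the log2 scale in Batf3-/- (limma adjusted p = 0.0112), and the WT difference of -0.30 ± 0.24 did not pass (adjusted p = 0.325, 95% interval -0.82 to 0.23). Without Batf3-/- migratory replicate 1 the Batf3-/- value was -0.57 (adjusted p = 0.0501).

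Bak1, the measured effector of the pair, was lower in migratory cells of both genotypes but passed only in WT. Batf3-/- arrays read 6.87, 6.83 and 6.65 in migratory DC1, against 7.07, 7.03 and 7.23 in resident DC1, a difference of -0.33 ± 0.17 (limma adjusted p = 0.147). WT arrays read 6.20 and 6.75 in migratory cells, against 7.27, 7.11 and 7.31 in resident cells. No migratory array of Bak1 reached a resident array of its genotype, a separation as common over all genes as given for Bcl2l1. In WT, Bak1 fell by 0.75 ± 0.19 (adjusted p = 0.00560). WT migratory replicate 1 weighed on that value, which was -0.47 (adjusted p = 0.0854) without it, and -0.45 (adjusted p = 0.0554) after a second quantile normalization. The Batf3 effect on Bak1 in migratory minus resident cells was 0.42 ± 0.25 (adjusted p = 0.372), so a difference between the genotypes was not shown.

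Among the BH3-only genes, Bid had the largest change. BID is cut by caspase-8 and links death receptors to the mitochondrion. Its log2 intensity was 5.33, 5.90 and 5.86 in Batf3-/- migratory DC1, against 6.65, 6.82 and 6.86 in Batf3-/- resident DC1. In WT it was 5.74 and 6.00 in migratory cells, against 6.67, 7.28 and 7.53 in resident cells. All migratory arrays lay below all resident arrays, and within each genotype such separation was as common over all genes as given for Bcl2l1. Bid fell by 1.08 ± 0.22 on the log2 scale in Batf3-/- (limma adjusted p = 0.00203) and by 1.29 ± 0.25 in WT (adjusted p = 0.00114). Within arrays sharing a title code the difference was -1.32, -0.92 and -1.004 in Batf3-/- and -0.93 and -1.28 in WT. Without WT resident replicate 1, the array with the high cDC2 marker sum, the WT value was -1.53 (adjusted p = 3.04e-04).

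Bbc3 encodes PUMA, a BH3-only protein induced by p53 that binds all the main anti-apoptotic members. It read 5.89, 5.82 and 5.64 in Batf3-/- migratory DC1, against 5.33, 5.19 and 5.33 in Batf3-/- resident DC1. WT cells read 5.42 and 5.59 in migratory arrays, against 5.02, 5.08 and 5.34 in resident arrays. Migratory arrays were above resident arrays in both genotypes, a separation as common over all genes as given for Bcl2l1. Bbc3 rose by 0.50 ± 0.13 in Batf3-/- (limma adjusted p = 0.00886), which held under all 16 alternatives, and the WT difference of 0.36 ± 0.14 missed the threshold (adjusted p = 0.0562, and 0.0336 at 0.46 without WT resident replicate 3).

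Pmaip1 encodes NOXA, which binds MCL1 and hastens its degradation. Its values were 9.52, 9.41 and 8.71 in Batf3-/- migratory DC1, against 9.34, 9.26 and 9.001 in Batf3-/- resident DC1. In WT they were 8.45 and 8.45 in migratory cells, against 9.10, 9.47 and 9.42 in resident cells. The WT migratory arrays were the lowest of all 11, and the other 3 groups overlapped. Of all genes tested, 70.3% did not overlap between WT migratory and WT resident cells. Between genotypes in migratory cells 36.6% did not. Pmaip1 fell by 0.88 ± 0.23 in WT (limma adjusted p = 0.00838), a direction that turned to 0.34 (adjusted p = 0.668) with the SD of each array's values as a covariate, while the Batf3-/- difference was 0.01 ± 0.21 (adjusted p = 0.968, 95% interval -0.44 to 0.47). The Batf3 effect was larger in migratory than in resident cells by 0.89 ± 0.31, which did not pass (adjusted p = 0.158). Without Batf3-/- migratory replicate 3, the array with 8.71, that difference was 1.14 (adjusted p = 0.00988).

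Bcl2l11 encodes BIM, which binds every anti-apoptotic member, and Bmf encodes a BH3-only protein held by dynein light chain. Neither passed between migratory and resident cells. Bcl2l11 read 6.18, 6.73 and 5.90 in Batf3-/- migratory and 5.92 and 5.84 in WT migratory DC1, against 6.00, 6.28 and 6.03 in Batf3-/- resident and 5.70, 5.73 and 5.35 in WT resident DC1. Bmf read 7.07, 7.24 and 6.61 in Batf3-/- migratory and 5.79 and 6.69 in WT migratory DC1, against 6.98, 7.02 and 6.86 in Batf3-/- resident and 6.06, 6.45 and 6.58 in WT resident DC1. The migration difference was 0.17 ± 0.20 for Bcl2l11 and 0.02 ± 0.24 for Bmf in Batf3-/-, and 0.28 ± 0.22 and -0.12 ± 0.27 in WT. In WT both migratory arrays of Bcl2l11 lay above its resident arrays, where 70.3% of all genes tested did not overlap. Every Batf3-/- resident array lay above every WT resident array for both Bcl2l11 and Bmf, as for Mcl1, where 19.8% of all genes tested did not overlap in either direction.

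**Figure D2:**
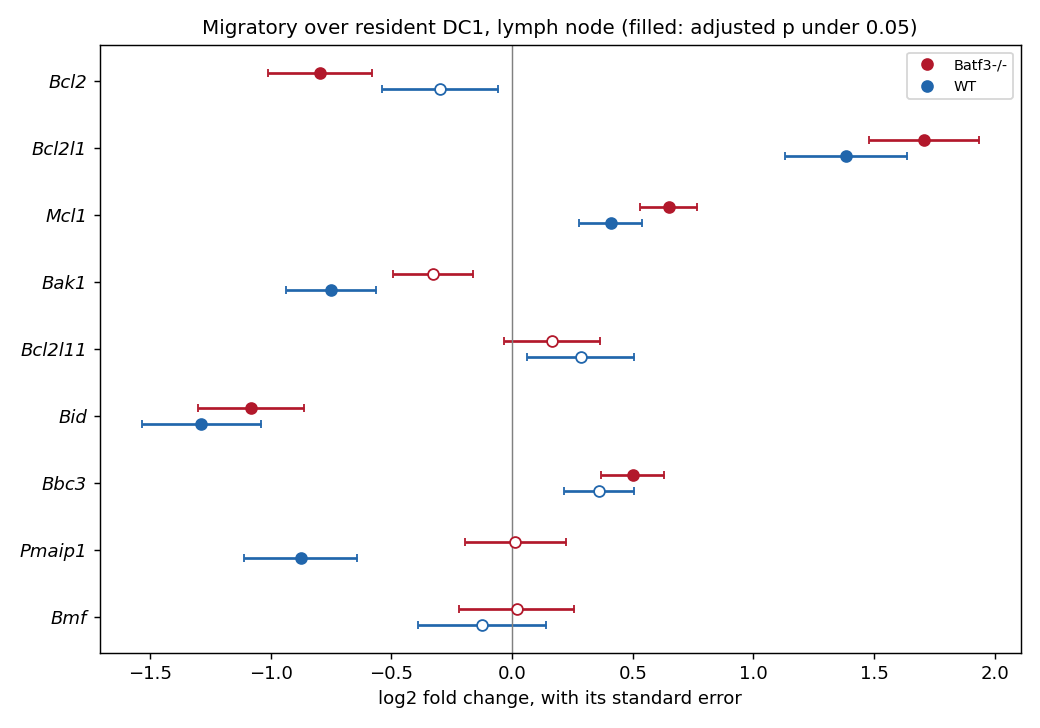
Log2 fold change of migratory over resident lymph node DC1 for each BCL2 family gene, with its standard error, in Batf3-/- (red, upper of each pair) and WT (blue) cells, filled where the adjusted p is under 0.05. Bcl2l1 shows the largest rise in both genotypes (1.71 in Batf3-/- and 1.38 in WT) and Bid the largest fall, while Pmaip1 is near 0 in Batf3-/- and at -0.88 in WT.

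Other values moved with migration state beside these. All 6 DC1 markers were called lower in migratory cells of both genotypes, with a median log2 fold change of -3.53 in Batf3-/- and -3.13 in WT. The SD of an array's log2 values was 2.07 to 2.16 in Batf3-/- migratory and 1.96 to 2.03 in WT migratory arrays, against 2.16 to 2.23 in Batf3-/- resident and 2.21 to 2.22 in WT resident arrays. With that SD as a covariate (the SD covariate), 5 members were called in Batf3-/- and 1, Bcl2l1 at 2.59, in WT. The WT value of Bid was then -1.43 (adjusted p = 0.174), that of Mcl1 0.29 (adjusted p = 0.535) and that of Bak1 -0.27 (adjusted p = 0.741). All 4 B cell markers measured were called higher in WT migratory than in WT resident DC1, by 0.65 (Cd79b) to 2.11 (Ms4a1), and 0 of 4 in Batf3-/-. The 5 T cell markers measured, of 6 listed, summed to 290 to 640 in Batf3-/- migratory and 450 to 858 in WT migratory arrays, against 302 to 672 in Batf3-/- resident and 279 to 318 in WT resident arrays. Of these T cell markers 2 were called higher in WT migratory cells and 0 in Batf3-/- migratory cells. Of the 4 cDC2 markers measured, of 5 listed, 3 (Clec10a, Mgl2 and Cd209a) were called lower in migratory cells of both genotypes. The 4 summed to 96.9 to 150 in Batf3-/- migratory and 124 to 142 in WT migratory arrays, against 585 to 734 in Batf3-/- resident and 257 to 1206 in WT resident arrays. The sum of 1206 was that of WT resident replicate 1. The 5 macrophage or monocyte markers summed to 264 to 282 in Batf3-/- migratory and 201 to 241 in WT migratory arrays, against 706 to 955 in Batf3-/- resident and 1007 to 1246 in WT resident arrays. Of the 4 of them tested, 2 were called higher and 1 lower in Batf3-/- migratory cells and 0 higher and 1 lower in WT migratory cells. The part of each in the changes with migration was not tested.

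Between genotypes no member passed in either kind of lymph node DC1. Among resident cells 0 of 9 members were called by limma (1.84% of all genes were called, 0.847% higher and 0.997% lower), and 2 had an unadjusted p under 0.05, as did 9.61% of all genes. They were Bcl2l11 at 0.51 ± 0.20 (adjusted p = 0.357) and Bmf at 0.59 ± 0.24 (adjusted p = 0.403), both with higher values in Batf3-/-. Bid had -0.38 ± 0.22, and -0.63 (adjusted p = 0.249) without WT resident replicate 1. Without that array Bmf was at 0.44. The remaining 6 differences lay between -0.13 (Pmaip1) and 0.15 (Bcl2l1). Bcl2l1 had a 95% interval of -0.34 to 0.64 and Mcl1 of -0.14 to 0.37. Of 5 migratory or mature DC markers (Ccr7, Fscn1, Ccl22, Ccl17 and Cd40), 3 were called higher in Batf3-/- than in WT resident cells. So were 2 of 4 cDC2 markers and 1 of 4 stromal or endothelial markers, while 2 of 6 DC1 markers were called lower. Their part in the genotype differences was not tested.

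Among migratory cells 0 of 9 members were called by limma, where 9.41% of all genes were, 7.13% higher and 2.28% lower in Batf3-/-. Without the filter on dim genes the higher calls made up 45.9% of all calls, and with the SD covariate 16.2%, against 75.8% here. The unadjusted p was under 0.05 for 3 members, all with higher values in Batf3-/-, against 30.0% of all genes. Pmaip1 differed by 0.76 ± 0.23 (adjusted p = 0.0584), Bmf by 0.73 ± 0.27 (adjusted p = 0.0920) and Mcl1 by 0.36 ± 0.13 (adjusted p = 0.0942). Bcl2l1 had 0.48 ± 0.25 (adjusted p = 0.229) and Bcl2 -0.40 ± 0.24 (adjusted p = 0.287). In the same comparison 4 of 6 DC1 markers, 1 of 4 B cell and 1 of 4 pDC markers were called lower. Of 4 macrophage or monocyte markers 2 were called higher, and 0 of 5 migratory or mature DC markers were called. The part of these markers was not tested. The count of called members rested on single arrays. Without Batf3-/- migratory replicate 3, which had the lowest Bcl2l1, Pmaip1 and Bmf of its group, 4 members were called, and so were 3570 of the 11931 genes, against 1123 with all arrays. The 4 were Pmaip1 (1.01, adjusted p = 0.00183), Bcl2l1 (0.75, adjusted p = 0.0157), Bmf (0.92, adjusted p = 0.0234) and Mcl1 (0.36, adjusted p = 0.0447). Without WT migratory replicate 2, Bmf alone was called (1.19, adjusted p = 0.0246).

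The difference of the Batf3 effect between migratory and resident cells was called for 0 of 9 members by limma, with 1.24% of all genes called, 0.721% higher and 0.52% lower, and Pmaip1 alone having an unadjusted p under 0.05, as did 19.2% of all genes. Estimates for the others ran from -0.50 ± 0.32 (Bcl2) to 0.42 ± 0.25 (Bak1). All of these had 95% intervals that include 0.

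**Figure D3:**
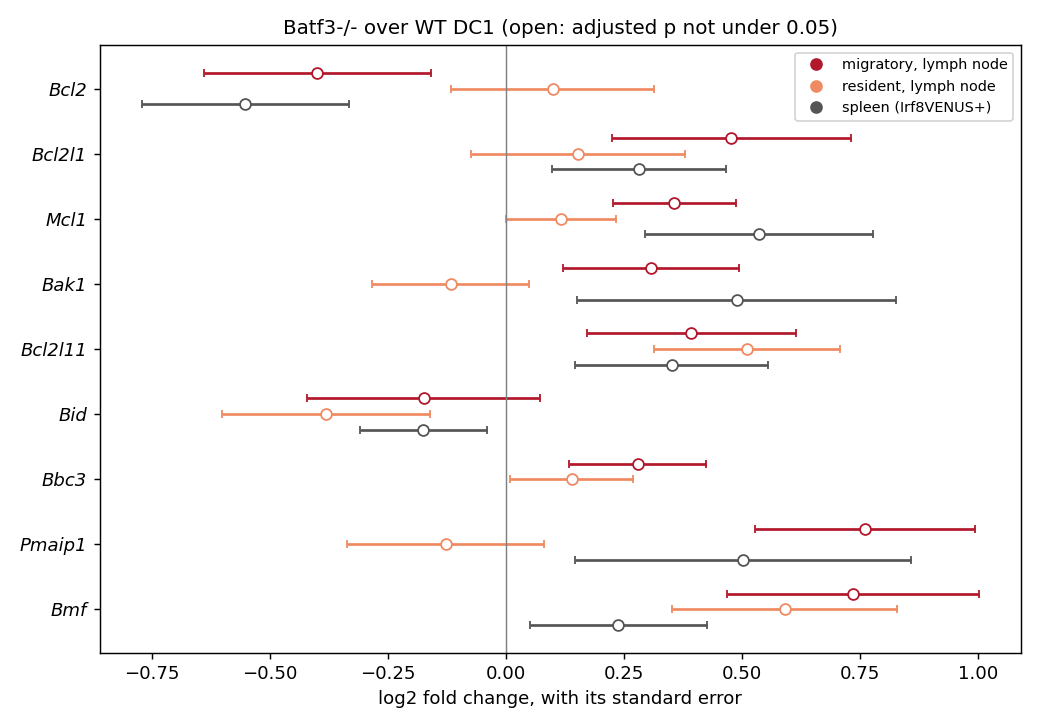
Log2 fold change of Batf3-/- over WT for each BCL2 family gene, with its standard error, in migratory and resident lymph node DC1 and in spleen Irf8VENUS+ DC1, each from its own table, with Bbc3 below the filter in spleen. All points are open because none had an adjusted p under 0.05; Pmaip1 and Bmf have the highest values, 0.76 and 0.73, in migratory cells.

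In spleen no member passed in any of the 3 comparisons. The 5 migratory or mature DC markers summed to 2077 to 3236 in linear intensity in Batf3-/- Irf8VENUS+ arrays. They summed to 545 to 1217 in WT Irf8VENUS+ and 1431 to 1987 in WT Irf8VENUS- arrays. Of them 1 was called higher in Batf3-/- than in WT Irf8VENUS+ cells, and 1 of 5 DC1 markers was called lower. The part of these markers in the spleen results was not tested. Between Batf3-/- and WT Irf8VENUS+ cells 0 of 8 members were called by limma, against 0.738% of all genes, 0.435% higher and 0.303% lower. Bcl2 alone had an unadjusted p under 0.05, as did 10.4% of all genes, at -0.55 ± 0.22 (adjusted p = 0.432). It read 6.56, 6.26 and 7.11 in Batf3-/- Irf8VENUS+ DC1, against 7.16, 6.46 and 7.97 in WT Irf8VENUS+ DC1 and 6.77 and 6.65 in WT Irf8VENUS- DC1. Another Bcl2 probe set in spleen, not used, was dim at 4.51 to 5.03. In both Irf8VENUS+ groups the highest Bcl2 was that of the array sorted on CD24 alone. The difference was -0.85 within that gate and -0.40 in the arrays gated with XCR1 as well.

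Mcl1 read 10.91, 10.74 and 10.78 in Batf3-/- Irf8VENUS+ DC1, against 9.65, 10.64 and 10.54 in WT Irf8VENUS+ DC1 and 10.90 and 10.76 in WT Irf8VENUS- DC1. Another Mcl1 probe set in spleen, dimmer and not used, spanned only 9.45 to 9.76 over all arrays. The one used spanned 9.65 to 10.91, so the Mcl1 differences given here rest on that probe set. Pmaip1 read 8.25, 8.12 and 8.35 in Batf3-/- Irf8VENUS+, against 6.91, 8.23 and 8.07 in WT Irf8VENUS+ and 7.76 and 8.62 in WT Irf8VENUS- cells. WT Irf8VENUS+ replicate 1 was the lowest of the 8 arrays for Mcl1, Pmaip1, Bak1 (8.59) and Bcl2l11 (6.80). Against WT Irf8VENUS+ cells the Batf3-/- difference was 0.54 ± 0.24 for Mcl1, 0.50 ± 0.36 for Pmaip1, 0.49 ± 0.34 for Bak1 and 0.35 ± 0.20 for Bcl2l11. Without that array it was 0.21, 0.09, 0.08 and 0.15 for these 4 genes in the same order. The WT Irf8VENUS+ group, that array included, also enters the comparison that follows.

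Bcl2l1 in spleen read 5.83, 5.68 and 5.65 in Batf3-/- Irf8VENUS+, against 5.63, 5.12 and 5.56 in WT Irf8VENUS+ and 5.63 and 6.02 in WT Irf8VENUS- DC1, a difference of 0.28 ± 0.18 between the Irf8VENUS+ groups (adjusted p = 0.667). Bak1 ranged from 8.77 to 10.02 in Batf3-/- Irf8VENUS+, from 8.59 to 9.58 in WT Irf8VENUS+ and from 9.55 to 10.09 in WT Irf8VENUS- cells. Bid spanned 5.93 to 6.22 in Batf3-/- Irf8VENUS+, 6.09 to 6.34 in WT Irf8VENUS+ and 6.09 to 6.31 in WT Irf8VENUS- cells, and Bmf 6.44 to 6.79, 6.04 to 6.74 and 6.33 to 6.36 in the same groups. Bbc3, untested, lay between 4.72 and 5.31 on all arrays, around the filter level of 5.04. Between WT Irf8VENUS+ and WT Irf8VENUS- cells 0 of 8 members were called, against 0.0233% of all genes (0.0155% higher and 0.00777% lower), and 0 had an unadjusted p under 0.05 (7.91% of all genes). Mcl1 was at -0.61 ± 0.28 (adjusted p = 0.641) there, and every other estimate was within 0.57 of 0. Between Batf3-/- Irf8VENUS+ and WT Irf8VENUS- cells 0 of 8 were called, against 0.559% of all genes (0.28% in each direction), and 0 had an unadjusted p under 0.05 (9.25% of all genes).

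**Figure D4:**
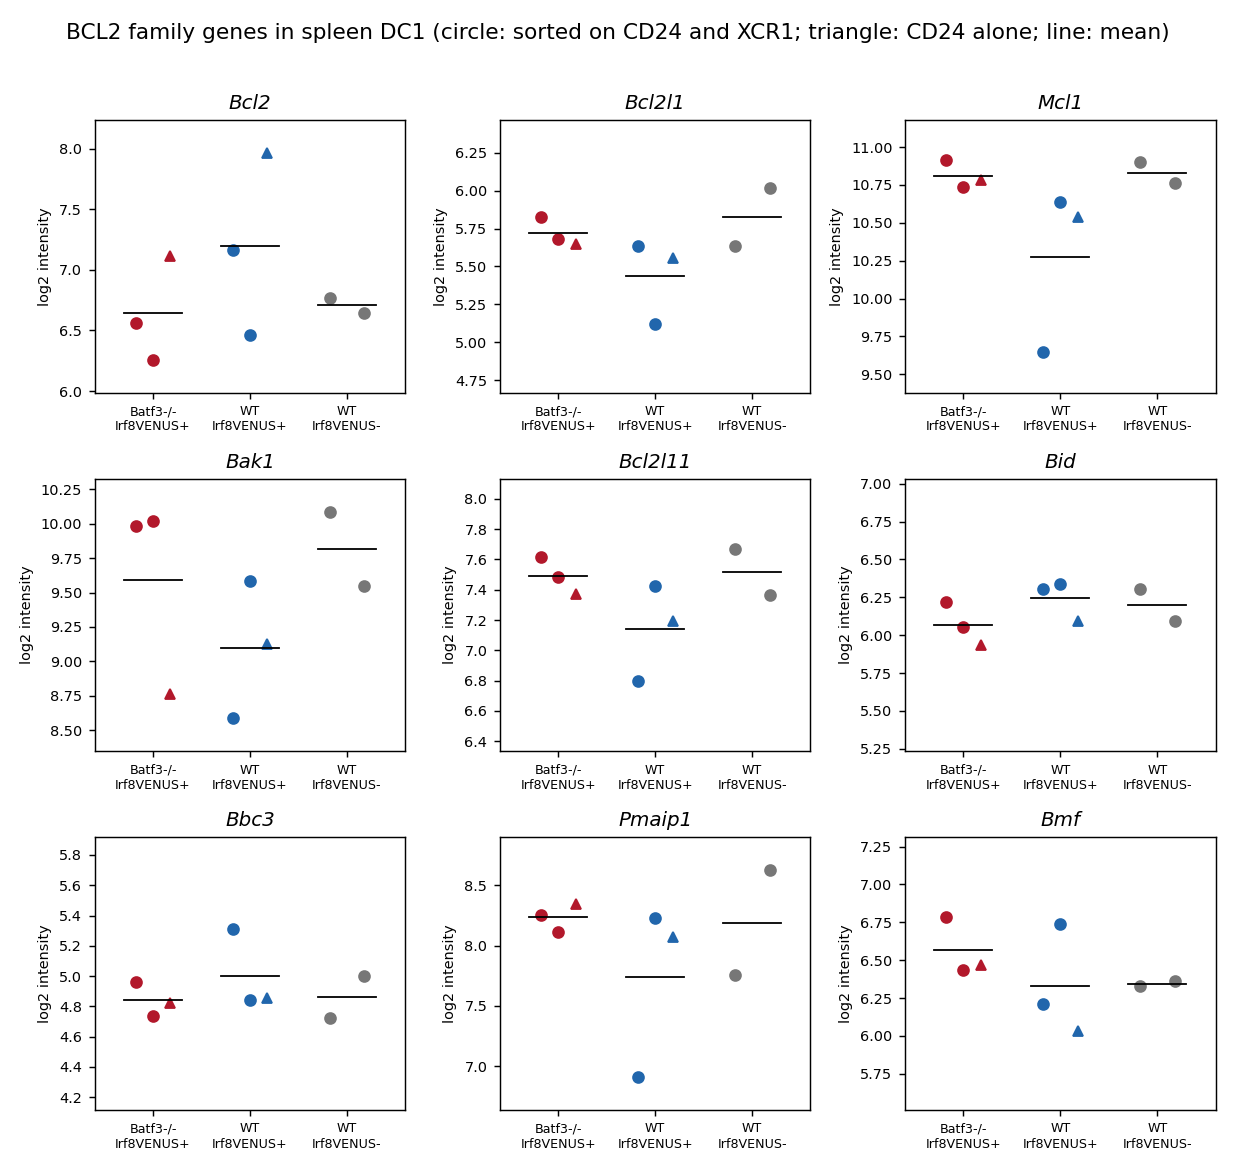
Log2 intensity of the 9 measured BCL2 family genes in spleen DC1, 1 point per array, circles for arrays sorted on CD24 and XCR1 and triangles for CD24 alone, with the line at the group mean and an axis per gene that does not start at 0. The low WT Irf8VENUS+ point of Mcl1 (9.65) and Pmaip1 (6.91) is the same array.

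Genes that act with the BCL2 family were read from 6 lists. Their counts stand against the 14.1% of all genes higher and 22.6% lower in Batf3-/- migratory cells, and the 16% higher and 33.2% lower in WT migratory cells. Of 11 other BCL2 family genes tested, 2 were higher and 0 lower in Batf3-/- migratory than resident DC1, and 4 were higher and 1 lower in WT. Bcl2l14, a BCL2 relative, rose by 2.03 ± 0.17 in Batf3-/- and 1.35 ± 0.19 in WT. Bcl2a1c rose by 1.39 ± 0.19 in WT (0.67, adjusted p = 0.303, with the SD covariate). It belongs to a set of near-identical Bcl2a1 copies whose signal a probe set may not separate. Hrk, a BH3-only gene, had 0.43 in Batf3-/- and 0.56 in WT, calls that were lost without single arrays (0.34 to 0.43 in Batf3-/- without resident replicates 2 or 3 or migratory replicates 2 or 3, and 0.48 in WT without migratory replicate 2). The fall of Bcl2l13 in WT (-0.47) was lost under several settings, among them without WT migratory replicate 1 (-0.26), WT resident replicate 1 (-0.38) or WT resident replicate 2 (-0.46).

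Downstream of the mitochondrion, as over all genes, falls outnumbered rises. Of 13 apoptosome and caspase genes tested, 1 rose and 7 fell in Batf3-/- migratory against resident DC1, and 1 rose and 8 fell in WT, and 7 of these genes were called in the same direction in both genotypes. Casp6, an executioner caspase, fell by 2.62 ± 0.24 in Batf3-/- and 2.46 ± 0.27 in WT, where the SD covariate gave -1.72 (adjusted p = 0.108). Casp2 fell by 1.56 ± 0.21 in Batf3-/- and 2.03 ± 0.23 in WT, and Cycs, the gene of cytochrome c, by 1.21 ± 0.16 and 1.26 ± 0.18 in the same genotypes. Htra2, a mitochondrial protease that removes inhibitors of apoptosis when released, was the gene that rose, by 2.14 ± 0.22 in Batf3-/- and 1.37 ± 0.24 in WT. The list's median was -0.59 in Batf3-/- and -0.74 in WT, against -0.02 and -0.16 over all genes.

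Inhibitors of apoptosis moved in both directions. Of 9 tested, 3 rose and 4 fell in Batf3-/- migratory against resident DC1, and 3 rose and 6 fell in WT. The genes that rose were Birc2 (cIAP1; 2.95 ± 0.19 in Batf3-/- and 2.84 ± 0.21 in WT), Cflar (c-FLIP, the inhibitor of caspase-8; 1.68 ± 0.18 and 1.898 ± 0.20) and Birc3 (cIAP2; 0.99 ± 0.15 and 0.83 ± 0.16). Birc5, known as survivin and expressed mainly in dividing cells, fell by 2.26 ± 0.17 in Batf3-/- and 2.78 ± 0.19 in WT. Naip6 fell by 1.63 ± 0.23 in Batf3-/- and 2.48 ± 0.26 in WT, where the SD covariate gave -1.02 (adjusted p = 0.193). With the SD covariate Birc3 in WT was at 1.16 (adjusted p = 0.0611). The list's median was -0.07 in Batf3-/- and -0.71 in WT.

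Of 8 death receptor genes, 1 rose and 2 fell in Batf3-/- migratory against resident DC1, and 1 rose and 3 fell in WT. Fas, the death receptor itself, had the highest rise among the 6 lists, 3.01 ± 0.23 in Batf3-/- and 3.66 ± 0.25 in WT, while Tnfrsf1a, the TNF receptor, fell by 1.57 ± 0.28 and 1.72 ± 0.31, the WT value turning to 0.11 with the SD of each array's values as a covariate. Of 17 regulators of the family, 3 rose and 5 fell in Batf3-/- and 1 rose and 4 fell in WT. Mdm2, the negative regulator of p53, rose by 1.12 ± 0.25 in Batf3-/-, E2f1 fell by 1.35 ± 0.14 in Batf3-/- and 1.29 ± 0.16 in WT, and Mtch2, a mitochondrial receptor for truncated BID, fell by 1.03 ± 0.16 and 1.05 ± 0.18. With the SD covariate the WT values were -0.89 for E2f1 (adjusted p = 0.157) and -1.21 for Mtch2 (adjusted p = 0.0790). Of 19 survival signalling genes, 5 rose and 2 fell in Batf3-/- and 3 rose and 6 fell in WT. Relb, a subunit of NF-kB, rose by 2.31 ± 0.25 in Batf3-/- and 1.52 ± 0.28 in WT, and Tnfrsf11a (RANK) by 2.01 ± 0.16 and 1.89 ± 0.18. Pik3cd, a PI3K catalytic subunit, fell by 2.27 ± 0.29 and 2.55 ± 0.32, and the WT value was -0.71 (adjusted p = 0.488) with the SD covariate.

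**Figure D5:**
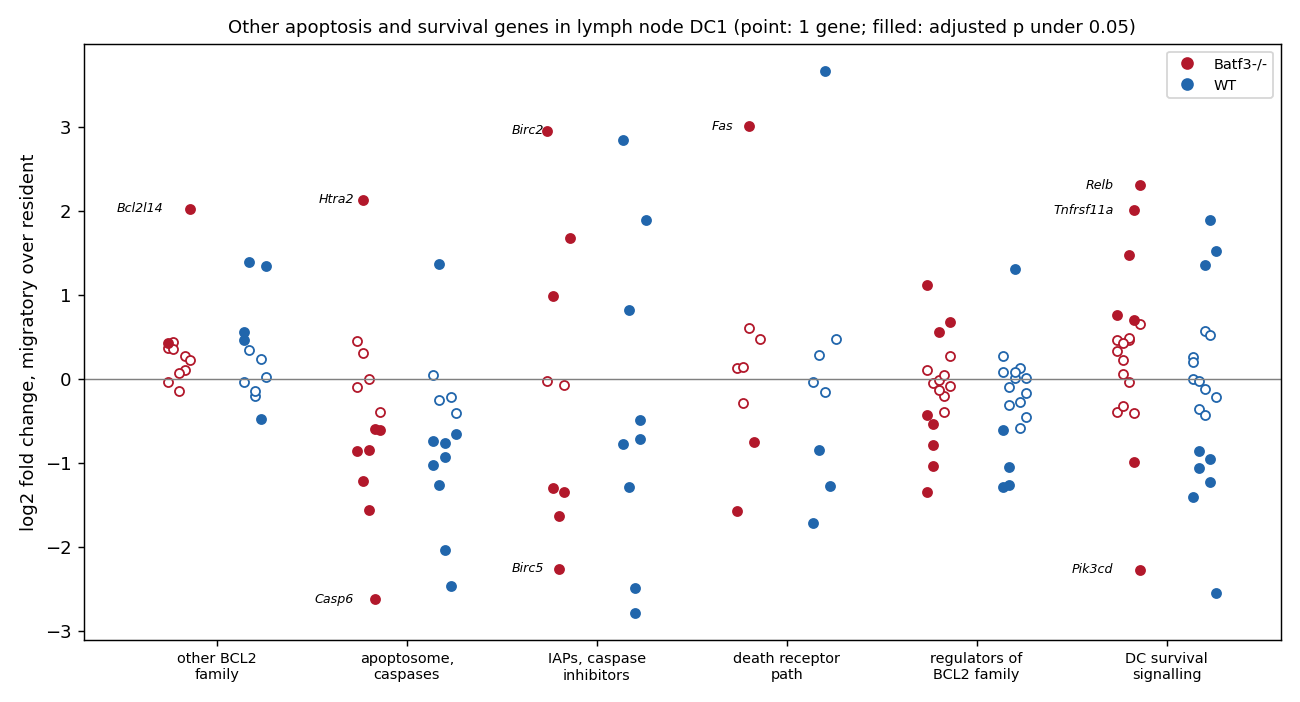
Log2 fold change of migratory over resident lymph node DC1 for the genes of 6 lists, 1 point per gene, Batf3-/- in red to the left and WT in blue to the right of each list, filled where the adjusted p is under 0.05. Fas and Birc2 are the highest points in both genotypes, and most filled caspase points lie below 0.

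Between genotypes 9.41% of all genes were called in migratory and 1.84% in resident cells. In migratory cells 2 caspase list genes, 1 inhibitor, 1 regulator and 6 survival signalling genes rose in Batf3-/- against WT, and 0 fell. Among the last were Csf2rb2 (1.08 ± 0.22, adjusted p = 0.0168) and Csf2rb (1.36 ± 0.32, adjusted p = 0.0241), the beta chains of the GM-CSF and IL-3 receptors, and Relb (1.13 ± 0.28, adjusted p = 0.0293). These 3 calls were lost without WT migratory replicate 1 (1.104, 1.17 and 0.90 in that order), Batf3-/- migratory replicate 1 (0.89, 1.19 and 0.96) or Batf3-/- migratory replicate 2 (1.01, 1.21 and 1.002). With the SD covariate they were at 0.53 (adjusted p = 0.523), 0.09 (adjusted p = 0.932) and 0.16 (adjusted p = 0.882). Dffa, the inhibitor of the apoptotic nuclease, rose by 0.75 ± 0.14 (adjusted p = 0.0116), a call lost without WT migratory replicate 1 (0.76, adjusted p = 0.0797) and with the SD covariate (0.60, adjusted p = 0.286). In resident cells Cflar alone passed, at 0.83 ± 0.18 (adjusted p = 0.0337), and its call was lost without any 1 of the 6 arrays (0.79 to 0.88, adjusted p = 0.0714 to 0.164). In spleen 0 genes of these lists were called.

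The members' patterns over the 11 SDLN arrays are given as descriptions, since the arrays fall into a migratory and a resident cluster that any gene moving with migration shares. Bcl2l1 and Mcl1 had a Pearson r of 0.92, Bcl2l1 and Bid -0.93, Bcl2 and Bid 0.81, and Bcl2l1 and Bcl2 -0.88. Pmaip1 had its highest r with Bak1 (0.65) and Bmf its highest with Bcl2l11 (0.62). Among 11274 genes, those most like Bcl2l1 were Daam1 (r = 0.99), Dscaml1 (0.99) and Arhgap28 (0.99), and those most like Mcl1 were Col27a1 (0.98), Csnk1g1 (0.98) and Gucd1 (0.98). Closest to Bcl2 were Ptges2 (0.95), Fam111a (0.91) and Cpox (0.91), and closest to Bid were Msh6 (0.97), Nop16 (0.96) and Arhgap15 (0.96). Pmaip1 was most like Dvl3 (0.99), Mark4 (0.98) and Mprip (0.98), Bak1 most like Ccar2, Apbb1ip and Ankrd40 (each 0.98), and Bbc3 most like Kmt5b (0.98), Grina and Caprin2 (each 0.97). Within the 6 resident arrays alone the same 21 pairs had r of 0.62 to 0.97. The pairs were picked over 11 arrays that include these 6, so a high r there follows in part from the choice.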

How the data were processed

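Expression arrays were run on 19 samples of sorted mouse DC1 RNA, 8 from spleen and 11 from SDLN, amplified with the WT Pico kit per the labels' protocols. The spleen table was deposited as linear intensity and was converted to log2 here, and the SDLN table was deposited as log2 values. RMA is named for both, per the submitters' processing notes, with its version not given in the sources used here. The 2 tables were tested separately.

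Probe sets were named through the platform annotation, where 23521 of 41345 spleen and 21789 of 35556 SDLN probe sets had 1 symbol, 1814 and 1621 had several, and 16010 and 12146 had none. Genes were kept with at least 2 arrays at the table's median (log2 of 5.04 in spleen and 4.82 in SDLN), leaving 12875 and 11931. The 8 comparisons were contrasts of a linear model fitted to each table by limma 3.58.1 (R 4.3.3) with a mean-variance trend. A gene was called at a Benjamini-Hochberg adjusted p under 0.05, the adjustment running over the whole filtered table. The spleen model held a sort gate term. The fits were tested on simulated data, in 12875 spleen or 11931 SDLN genes. Each simulation changed 66 genes by a log2 of 1, 67 by 2 and 67 by 3. Noise was drawn independently for each gene and array, with each gene's spread pulled toward the median. Of genes changed by a log2 of 1, the share recovered was 89.4% for Batf3-/- and 72.7% for WT migratory over resident, 78.8% for migratory and 87.9% for resident Batf3-/- over WT, and 39.4% for the difference of the Batf3 effect. In spleen it was 72.7% for Batf3-/- over WT Irf8VENUS+, 47.0% for WT Irf8VENUS+ over WT Irf8VENUS- and 40.9% for Batf3-/- Irf8VENUS+ over WT Irf8VENUS-. The data differ from these settings, with 36.6% of genes called in Batf3-/- and 49.2% in WT between migratory and resident cells. The shares recovered are thus not the power of these data.

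Same-numbered migratory and resident Batf3-/- arrays deviated together (r = 0.416, 0.210 and 0.479 over genes). Migratory replicate 1 with resident replicate 2 had 0.218, and migratory replicate 2 with resident replicate 1 had 0.184. Pairing by number was thus not shown for replicates 1 and 2. Each of the other SDLN and spleen comparisons had a lowest same-numbered r of 0.0971 or less. The main SDLN fits held no replicate block, which was run as an alternative. Members and lists were chosen with earlier results of these data known. All members are named, with up to 3 called genes per list, direction and comparison by smallest adjusted p, and the 3 genes best correlated with each called member. Alternatives covered the filter, normalization, arrays in the fit, array weights, variance trend, probe set rule, gate, replicate block and the SD of each array's values. Bax, with no probe set of a single symbol, was left out of the expression tests. Promoter sequences are from RefSeq (GRCm38.p6). Windows of 9 of the 10 members were searched, Bax among them and Pmaip1 not.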

Additional observations from a re-analysis of the deposited data

How the results depend on the processing

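Of the counts of called members, 121 recomputed values stayed within 1.5 times and 10 moved. The main count was 0 in all but the migratory over resident comparisons. Many of the unchanged values were thus 0 again, which says little about stability. Of the named genes' fold changes 1002 kept direction and side of the threshold, 103 lost the threshold and 7 reversed. In migratory cells, Batf3-/- over WT gave 0 called members, 2 with array weights, 3 with the replicate block (Bcl2l1, Pmaip1 and Bmf), and 0 to 4 when single arrays were left out. In resident cells Batf3-/- over WT gave 1 (Bmf) with array weights and 1 with the SD of each array's values as a covariate, and 0 without any single array. The difference of the Batf3 effect gave 1 (Pmaip1) with array weights and 0 to 1 when single arrays were left out. WT migratory over resident gave 5, 1 with the SD covariate and 3 to 5 when single arrays were left out, and Batf3-/- migratory over resident gave 5, and 4 to 5 when single arrays were left out. With the replicate block both migratory over resident counts stayed at 5, and the spleen counts and the resident count stayed at 0. The SD covariate reversed Pmaip1 (0.34), Akt1 (0.15), Akt2 (0.23), Tnfrsf1a (0.11), Tradd (0.22) and Bcl2l13 (0.42) in WT migratory over resident, and Htra2 (-0.061) in migratory Batf3-/- over WT. The cause was not tested.

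Over all genes, migratory Batf3-/- over WT called 1123, with 7 when the fit held only the groups compared, 37 with the SD covariate, 2464 with the replicate block and 2294 with array weights. For the difference of the Batf3 effect, 148 were called, 1110 with array weights and 543 with the replicate block. The share of WT migratory over resident calls that were higher was 32.4%, 22.3% with median centring and 41.1% after a second quantile normalization, with all-gene medians of -0.16, -0.31 and -0.07. It was 54.8% without the filter on dim genes (median 0.12) and 58.1% with the SD covariate, so the majority turned. The share for migratory Batf3-/- over WT was 75.8%, 62.4% after that normalization, 45.9% without the filter (median -0.04) and 16.2% with the SD covariate, where the majority also turned. Testing whether the Batf3 effect differed by migration state gave a share of 58.1%, 36.7% without the filter and 26.7% with the SD covariate. The WT migratory group has 2 arrays. The 95% intervals given are not adjusted for the number of genes, so they do not show what size of difference would be called. In migratory Batf3-/- over WT, Pmaip1 had an interval of 0.25 to 1.27 and was not called.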
